A study of Mus musculus with 12 samples.

Results

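The genes described here encode axon guidance ligands and receptors: ephrins and Eph receptors, semaphorins with their plexin and neuropilin receptors, Slits and Robos, and netrins with Dcc and the Unc5 receptors. They were chosen by symbol, with earlier results of these data known, as all protein-coding genes of these names. They number 69 of the 55401 gene identifiers in the count table. Of these, 61 had enough reads to be tested among 16135 genes, and 8 did not. RNA was sequenced from cultured cells of the subventricular zone (SVZ), the germinal layer beside the lateral ventricles, of CD1 mice, in 12 libraries of 3 groups of 4. The postnatal group of neural stem cells (NSC) consists of neurospheres, spheres of stem and progenitor cells in suspension, from pups at postnatal days 0 to 2, and the adult group of neurospheres from mice aged 2 months. Neurospheres had 6 to 7 days in medium with FGF (10 ng/mL), EGF (20 ng/mL), heparin (2 ug/mL) and B27. The third group holds oligodendrocyte precursor cells (OPC) of postnatal origin: primary neurospheres were dissociated and kept as a monolayer for 2 days in FGF (10 ng/mL) plus PDGF-AA (10 ng/mL). No group carries a transgene or a mutation in the labels, and each has 4 independent litters. The OPC group therefore differs from the postnatal NSC group in culture format, dissociation and growth factors as well as in cell type, and from the adult NSC group in age too. Heparin is given in the labels for neurospheres only, and the postnatal NSC libraries were sequenced more deeply than the others. P-values set a difference against the spread between these cultures, estimated for each gene over all 3 groups together. Adult libraries differed less from each other than postnatal NSC libraries did, and the shared estimate does not separate these spreads.

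Guidance molecules steer growing axons and migrating cells by attraction or repulsion, through receptors whose cytoplasmic parts act on the actin cytoskeleton by way of small GTPases. Netrins attract through Dcc and repel through Unc5 receptors, Slits repel through Robos, secreted class 3 semaphorins bind a neuropilin that pairs with a plexin, and most other semaphorins bind plexins directly. Ephrins and Eph receptors are both held on cells and signal in both directions at contacts. In the SVZ, Slits, ephrins and netrins are known for guiding neuroblasts and for effects on proliferation, and netrin and class 3 semaphorins for attracting or repelling migrating OPCs.

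Summed gene counts ran from 38928989 to 54801726 over the postnatal NSC libraries, from 16756231 to 20064043 over those of adult NSC, and from 17226501 to 23651396 over those of OPC. CPM below means counts per 1e6 after scaling of library sizes, shown as the mean ± SD of 4 libraries or in library order 1 to 4. The summed level of 11 OPC markers was 10742 to 15659 CPM in OPC, against 6218 to 6546 in postnatal NSC and 5168 to 5468 in adult NSC. That of 10 stem cell markers was 7987 to 9175 in postnatal NSC and 9800 to 10437 in adult NSC, against 5867 to 9186 in OPC. Summed G1/S genes were lowest in postnatal NSC library 3 (772 CPM) and OPC library 2 (601 CPM), which stand apart from the others of their groups. Several guidance genes that were high or low in those libraries are marked below, but not all.

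Most of the tested guidance genes differed between the groups in each comparison, as did a large share of all genes. In OPC against postnatal NSC, 15 of 61 tested members were higher and 21 lower (edgeR quasi-likelihood test, Benjamini-Hochberg adjusted p under 0.05), so that 59.0% were called, beside 45.1% of all genes tested (22.4% higher, 22.7% lower). In adult against postnatal NSC, 17 were higher and 30 lower, 77.0% beside a background of 53.1% (25.2% higher, 27.9% lower). The lower calls alone made up 49.2% of the members in that comparison. In OPC against adult NSC, 28 were higher and 20 lower, 78.7% beside 51.0% (26.3% higher, 24.7% lower). Calls of at least 1 on the log2 scale were 7 higher and 12 lower in OPC against postnatal NSC (6.98% and 9.71% of all genes), 7 and 22 in adult against postnatal NSC (6.57% and 13.4%), and 20 and 13 in OPC against adult NSC (13.1% and 9.59%). The 4 libraries of one group lay wholly above or below those of the other for 26, 42 and 46 members in this order of comparisons, beside 34.9%, 53.2% and 56.6% of all genes. The median absolute log2 fold change of the members was 0.70, 0.88 and 1.18 in the 3 comparisons in this order, and 0.41, 0.47 and 0.46 over all genes. The signed medians were -0.24, -0.60 and 0.37, beside -0.01, -0.03 and 0.01 over all genes. The comparisons share groups by pairs, so their fold changes are not independent of each other. In these bulk cultures, fewer cells of a type and less RNA per cell cannot be told apart.

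**Figure D1:**
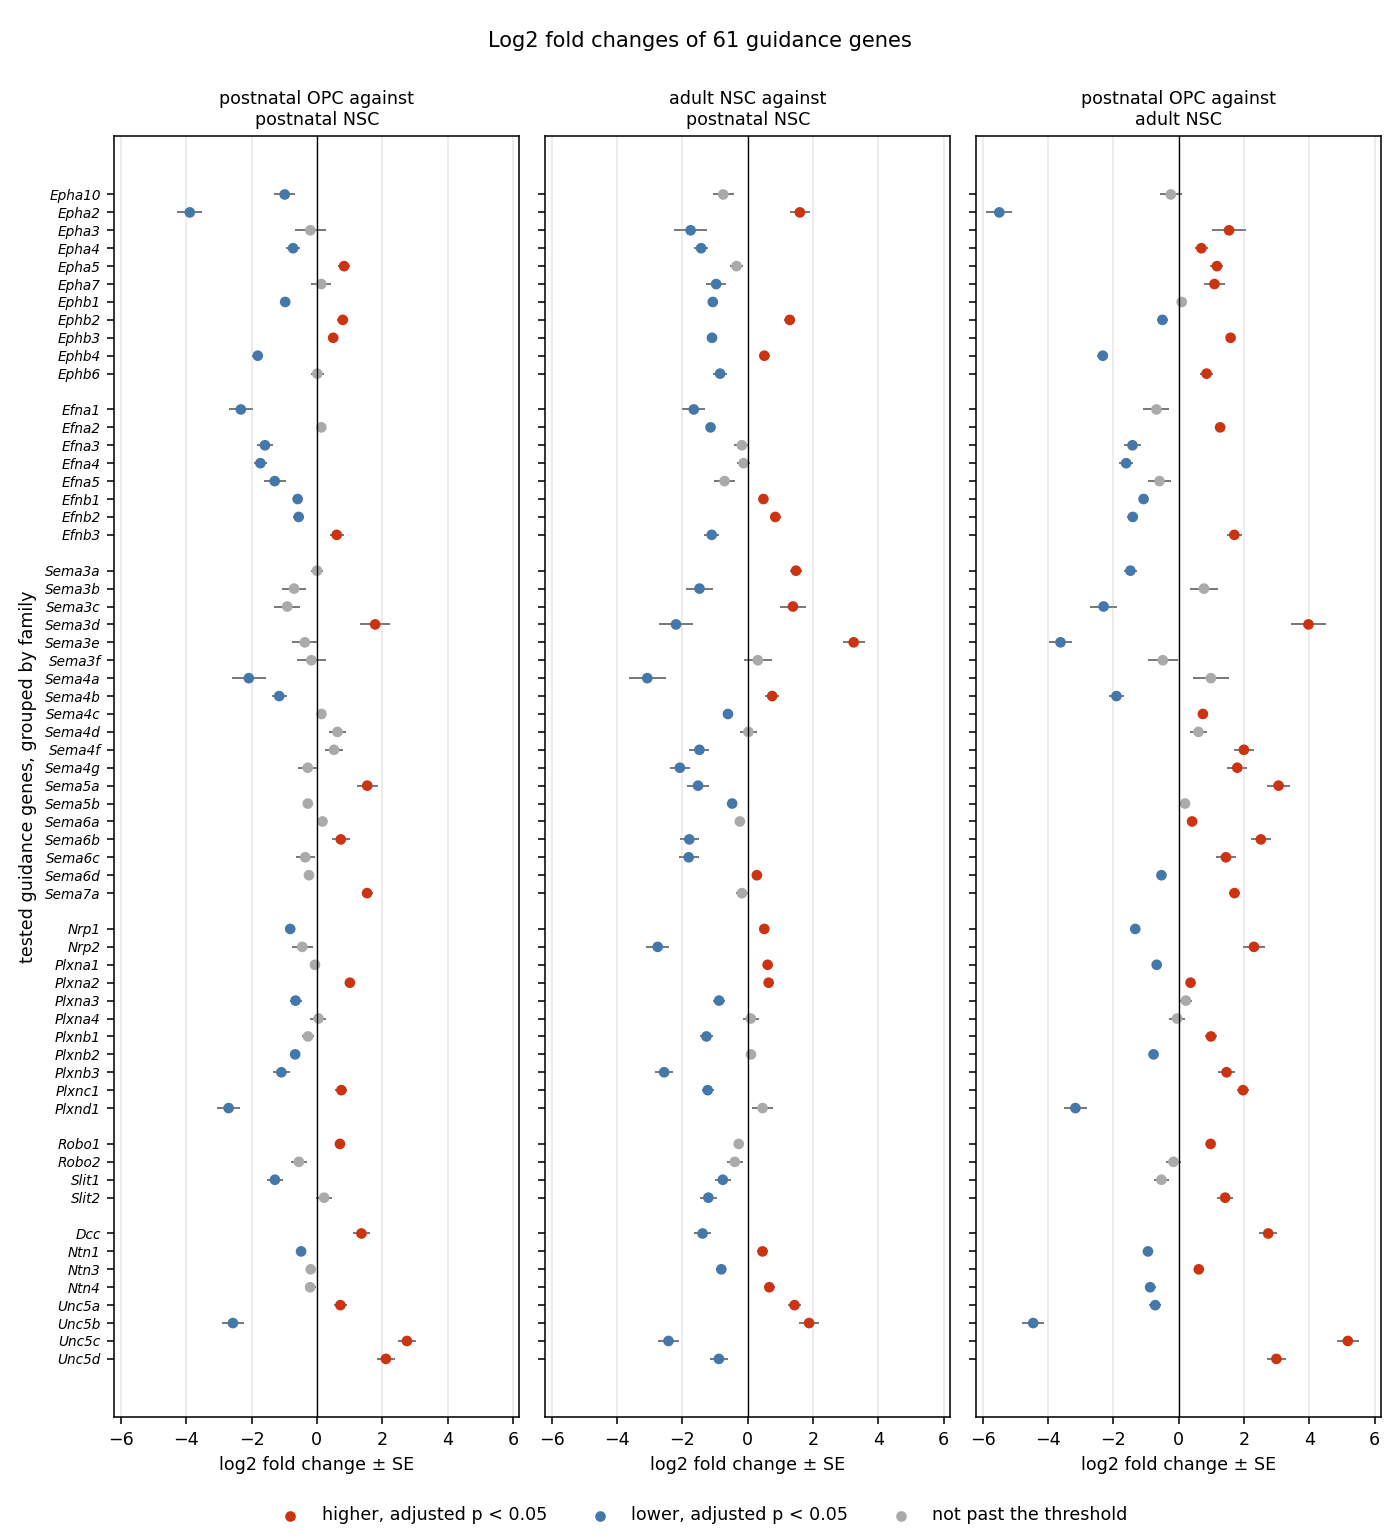
Log2 fold change (horizontal axis) of the 61 tested guidance genes (vertical axis, by family) in the 3 comparisons, with bars of 1 SE from the edgeR fit to 4 libraries per group. Red points were called higher, blue points lower and grey points neither. Unc5c lies farthest to the right and Epha2 farthest to the left in OPC against adult NSC, at 5.18 and -5.49.

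Of 4 genes whose OPC libraries did not overlap with any neurosphere library, sequence is shown first, as the 250 bases upstream of their RefSeq start site (GRCm38.p6, 5′ to 3′ on the gene's strand). Unc5b, Epha2 and Plxnd1 were lowest in OPC, and Sema7a was highest there, as described below. Capitals mark an E-box (CAGCTG), a SOX-type site (ACAAAG or ACAATG) or a GC box (GGGCGG), each searched on both strands, and none of the marked matches overlap.
Unc5b: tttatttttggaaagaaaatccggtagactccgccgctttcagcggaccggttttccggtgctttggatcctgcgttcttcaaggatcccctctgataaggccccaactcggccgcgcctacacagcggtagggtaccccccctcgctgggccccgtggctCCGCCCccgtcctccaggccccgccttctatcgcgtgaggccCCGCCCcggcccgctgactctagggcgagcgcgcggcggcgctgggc
Epha2: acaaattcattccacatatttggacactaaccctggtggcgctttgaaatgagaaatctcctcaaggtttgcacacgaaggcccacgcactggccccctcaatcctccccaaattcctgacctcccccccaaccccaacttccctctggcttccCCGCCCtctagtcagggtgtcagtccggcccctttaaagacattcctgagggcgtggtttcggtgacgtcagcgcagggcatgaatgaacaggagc
Plxnd1: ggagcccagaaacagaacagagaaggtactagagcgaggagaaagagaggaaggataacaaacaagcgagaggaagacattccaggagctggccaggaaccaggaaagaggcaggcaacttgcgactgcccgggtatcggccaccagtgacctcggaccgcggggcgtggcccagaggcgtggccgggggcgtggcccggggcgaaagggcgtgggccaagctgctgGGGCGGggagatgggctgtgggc
Sema7a: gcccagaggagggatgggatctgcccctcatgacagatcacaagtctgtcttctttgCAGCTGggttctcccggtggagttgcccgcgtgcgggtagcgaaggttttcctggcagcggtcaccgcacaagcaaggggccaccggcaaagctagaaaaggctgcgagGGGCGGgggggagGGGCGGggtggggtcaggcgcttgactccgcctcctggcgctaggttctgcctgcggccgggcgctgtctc
These windows lie at chr10:60831582-60831831 (minus strand), chr4:141300971-141301220 (plus), chr6:115995006-115995255 (minus) and chr9:57939862-57940111 (plus), outside the annotated span of each gene. Unc5b and Sema7a hold 2 GC boxes each, Epha2 and Plxnd1 hold 1 each, and only the Sema7a window of these 4 holds an E-box. None of the 4 holds the SOX-type letters. Over all 32851 promoter windows in the RefSeq table, 13.0% held the E-box, 25.2% a SOX-type site and 32.7% a GC box. Of 75 windows of 59 guidance genes, 12 held the E-box, 12 a SOX-type site and 53 a GC box. A match describes letters only and is no evidence of binding.

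The largest fold changes of the netrin family were those of receptors, and ligands changed by under 1 on the log2 scale. Of 8 tested genes of the netrin family, 4 were higher and 2 lower in OPC than in postnatal NSC (22.4% and 22.7% of all genes). Adult NSC had 4 higher and 4 lower against postnatal NSC (25.2% and 27.9% of all genes). OPC had 4 higher and 4 lower against adult NSC (26.3% and 24.7%). Unc5c, Unc5d and Dcc were highest in OPC and lowest in adult NSC, while Unc5b had the opposite order.

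Ntn1 encodes the secreted netrin that gave the family its name. It was at 193, 184, 102 and 164 CPM in postnatal NSC, 224, 212, 213 and 232 in adult NSC, and 127, 97.4, 125 and 111 in OPC. All adult values were above all OPC values and above all postnatal NSC values, while postnatal NSC and OPC overlapped. Its log2 fold change was -0.94 ± 0.16 (SE, edgeR adjusted p = 0.000545) in OPC against adult NSC, -0.48 ± 0.16 (SE, edgeR adjusted p = 0.0299) in OPC against postnatal NSC and 0.45 ± 0.16 (SE, edgeR adjusted p = 0.0343) in adult against postnatal NSC. The last pair of calls was marginal: over the alternative settings, the adjusted p of edgeR's test reached 0.0831 and 0.0762. It passed 0.05 without OPC library 2 or 4 or postnatal NSC library 1 or 2 in the first, and without any of the adult libraries, OPC library 1 or postnatal NSC library 4 in the second. Ntn4, a netrin found in basement membranes, was at 49.7, 40.7, 29.2 and 59.2 CPM in postnatal NSC, 74, 65.5, 71 and 72.4 in adult NSC, and 37.4, 35.1, 38.4 and 43.9 in OPC. Adult libraries were highest, with 0.66 ± 0.17 (SE, edgeR adjusted p = 0.00629) against postnatal NSC and -0.87 ± 0.17 (SE, edgeR adjusted p = 0.00117) for OPC against adult. In OPC against postnatal NSC its log2 fold change was -0.21 ± 0.17 (SE, edgeR adjusted p = 0.34), which was not called; without postnatal NSC library 3 it was -0.37 (edgeR adjusted p = 0.025).

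Dcc encodes the receptor for netrin attraction. Its levels were 39.8, 36.5, 59.3 and 23.5 CPM in postnatal NSC, 15.9, 17.4, 15.1 and 12.5 in adult NSC, and 87.9, 151, 80.9 and 89.6 in OPC. The 3 groups did not overlap, with OPC at the top and adult NSC at the bottom. The log2 fold change was 1.36 ± 0.26 (SE, edgeR adjusted p = 0.0012) in OPC and -1.38 ± 0.27 (SE, edgeR adjusted p = 0.00116) in adult NSC, each against postnatal NSC, and 2.74 ± 0.28 (SE, edgeR adjusted p = 7.9e-06) in OPC against adult NSC. OPC library 2 was the highest of its group.

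Unc5c, a receptor for netrin repulsion that lies on chromosome 3 from 141465216 to 141834924 (GRCm38, plus strand), was at 8.02, 9.3, 12.1 and 4.37 CPM in postnatal NSC, 1.26, 2.08, 1.69 and 1.23 in adult NSC, and 53.1, 77.8, 49.2 and 48.5 in OPC. The ordering was that of Dcc but the gaps were wider: the level in OPC was 6.76 times that in postnatal NSC and 36.5 times that in adult NSC, again with no overlap. The log2 fold changes were 2.76 ± 0.28 (SE, edgeR adjusted p = 1.72e-05), -2.42 ± 0.31 (SE, edgeR adjusted p = 9.55e-05) for adult against postnatal NSC, and 5.18 ± 0.33 (SE, edgeR adjusted p = 2.46e-07) for OPC against adult. Unc5d, the last member of that receptor group (chromosome 8, 28646717 to 29219636, minus strand), was at 5.36, 2.61, 2.98 and 2.98 CPM in postnatal NSC, 1.91, 2.65, 1.29 and 1.67 in adult NSC, and 15.1, 11.6, 15.6 and 18.1 in OPC. OPC libraries lay above both neurosphere groups, which overlapped with each other. Its log2 fold change was 2.11 ± 0.26 (SE, edgeR adjusted p = 7.07e-05) in OPC against postnatal NSC and 3.00 ± 0.28 (SE, edgeR adjusted p = 5.03e-06) against adult NSC. In adult against postnatal NSC it was -0.88 ± 0.28 (SE, edgeR adjusted p = 0.0178), a call lost without adult library 3 (-0.73, adjusted p = 0.0583).

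Unc5b, a repulsive receptor that is also known from blood vessels, lies on chromosome 10 from 60762593 to 60831581 (minus strand). It was at 23.7, 22.5, 9.12 and 31.2 CPM in postnatal NSC, 80.4, 78, 71.8 and 88.1 in adult NSC, and 2.9, 2.53, 4.67 and 4.56 in OPC. Every adult library was above every postnatal NSC library, and every OPC library was below all 8 neurosphere libraries. The mean in adult NSC was 3.68 times that in postnatal NSC and 21.7 times that in OPC. The log2 fold changes were -2.57 ± 0.33 (SE, edgeR adjusted p = 7.7e-05) in OPC against postnatal NSC, 1.88 ± 0.30 (SE, edgeR adjusted p = 0.000357) in adult against postnatal NSC and -4.45 ± 0.35 (SE, edgeR adjusted p = 1.03e-06) in OPC against adult NSC. Unc5a, the remaining Unc5 receptor, was at 5.04, 3.35, 4.83 and 3.78 CPM in postnatal NSC, 12.4, 11, 11.3 and 11.2 in adult NSC, and 9.54, 5.79, 6.92 and 5.76 in OPC. Adult NSC had the highest values and postnatal NSC the lowest, with no overlap among the 3 groups. Its log2 fold changes were 0.72 ± 0.19 (SE, edgeR adjusted p = 0.00853), 1.43 ± 0.19 (SE, edgeR adjusted p = 0.00012) and -0.71 ± 0.19 (SE, edgeR adjusted p = 0.00782) in the same order of comparisons.

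Markers of vessel cells did not follow a single order over the groups. The summed level of 8 endothelial markers was 4.63 to 16.1 CPM in postnatal NSC and 15 to 16.3 in adult NSC, against 2.25 to 3.59 in OPC, and only 2 of the 8 had enough reads for testing. Flt1 and Kdr carried the sums, which like Unc5b were lowest in OPC, whereas Pecam1 (0.16, 0.0702 and 0.201 CPM in postnatal NSC, adult NSC and OPC) and Cdh5 (0.108, 0.0141 and 0) were near 0 in all groups. The summed pericyte and fibroblast markers were 45.1 to 70.6, 17.3 to 44.2 and 3.69 to 9.62 CPM, higher in postnatal than in adult NSC, unlike Unc5b. The part of these markers in the levels of Unc5b, Plxnd1, Epha2, Ephb4 and Efnb2 was not tested. Neuroblasts and neurons also express Dcc, and their markers summed to 68 to 201 CPM in postnatal NSC and 30.1 to 41.7 in adult NSC, against 99.2 to 257 in OPC, and their part in the levels of Dcc and Unc5d was not tested either.

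**Figure D2:**
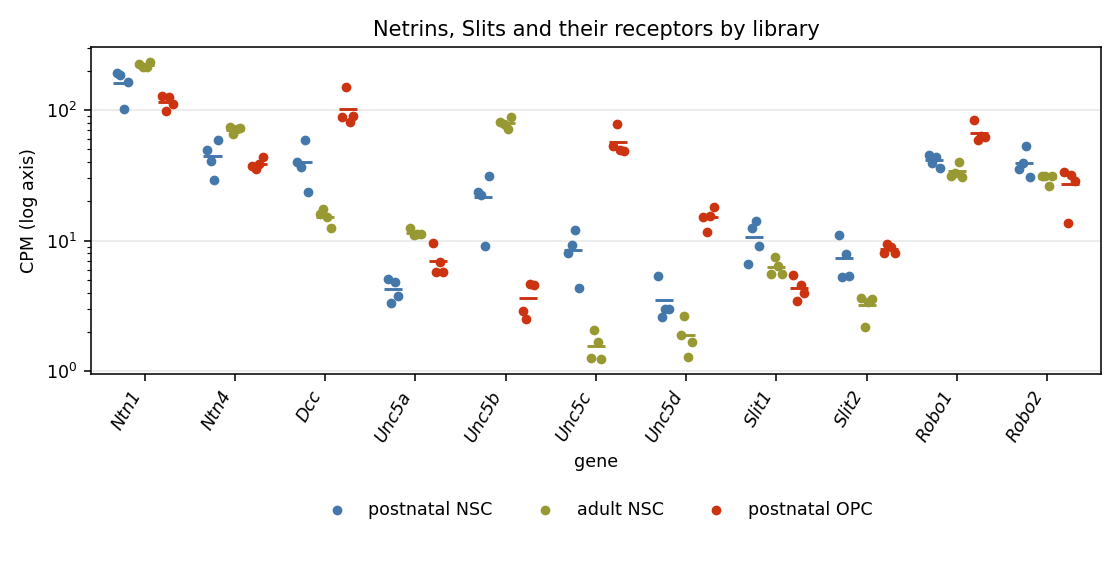
CPM on a log axis of netrins, netrin receptors, Slits and Robos in each library (points), by group, with the mean of 4 as a bar. Unc5c and Dcc are highest in the OPC libraries, and Unc5b is highest in the adult NSC libraries, from 71.8 to 88.1 CPM.

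Levels of different genes were compared per kb of exon. The length is that of all annotated exons of a gene, and the shares depend on it. It was 6258 bases for Unc5b, 13171 for Dcc and 19135 for Unc5c. Of the summed CPM per kb of Dcc and the 4 Unc5 genes, Unc5b made up 75.1% ± 2.21 (SD, n = 4) in adult NSC and 41.5% ± 17.6 (SD, n = 4) in postnatal NSC but 4.2% ± 1.73 (SD, n = 4) in OPC. Dcc made up 6.88% ± 1.12 (SD, n = 4), 36.5% ± 14.2 (SD, n = 4) and 52.1% ± 6.46 (SD, n = 4) in the same groups. Unc5c supplied 20.2% ± 1.25 (SD, n = 4) of the OPC sum and 0.488% ± 0.141 (SD, n = 4) of the adult sum. By this measure the receptor set was mostly Unc5b in adult neurospheres and mostly Dcc, Unc5c and Unc5d in OPC, with postnatal neurospheres between and the most varied. Postnatal NSC library 3, with the highest Dcc share (55.7%) and the lowest Unc5b share (18%), widened that range.

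**Figure D3:**
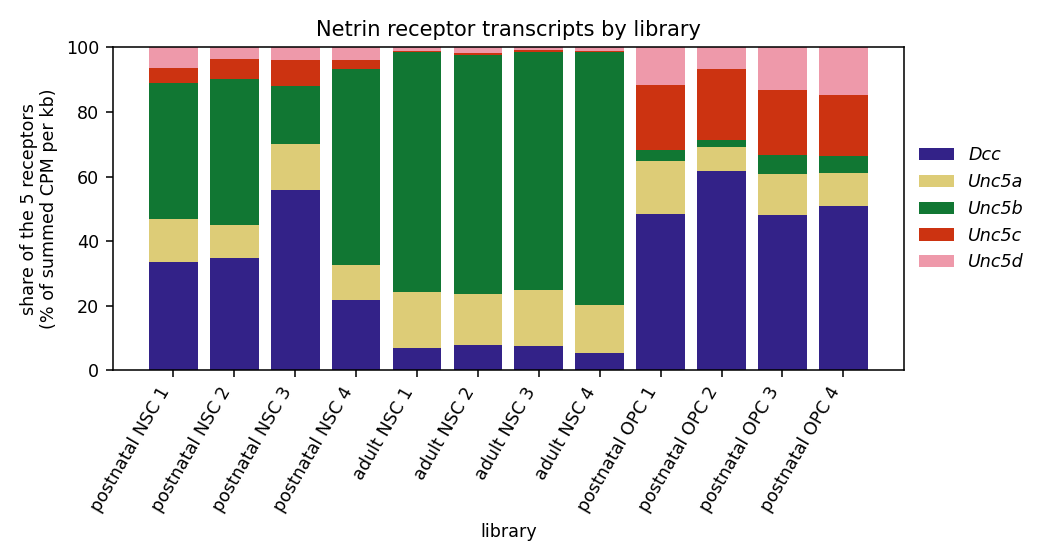
Share (percent, vertical axis) of each netrin receptor in the summed CPM per kb of Dcc and Unc5a to Unc5d, as stacked bars for each of the 12 libraries. The Unc5b share is 73.8% to 78.4% in adult NSC and 2.18% to 5.83% in OPC.

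Among Slit and Robo genes, Robo1 had its highest levels in OPC, Slit1 in postnatal NSC, and Slit2 its lowest in adult NSC. Of 4 tested members, 1 was higher and 1 lower in OPC than in postnatal NSC (22.4% and 22.7% of all genes). Another comparison, adult against postnatal NSC, had 2 lower (27.9% of all genes). OPC had 2 higher against adult NSC (26.3%). Slit1, a secreted repellent, was at 6.63, 12.5, 14.1 and 9.12 CPM in postnatal NSC, 5.51, 7.53, 6.42 and 5.55 in adult NSC, and 5.47, 3.42, 4.61 and 3.94 in OPC. OPC values were below all postnatal NSC values, with -1.28 ± 0.24 (SE, edgeR adjusted p = 0.00104). Adult and postnatal NSC overlapped, with -0.76 ± 0.24 (SE, edgeR adjusted p = 0.017), and this call was lost without adult library 1 (adjusted p = 0.0512, edgeR) and with the Y-linked gene Ddx3y as a covariate (-0.59, adjusted p = 0.065). OPC against adult NSC gave -0.52 ± 0.24 (SE, edgeR adjusted p = 0.0893), not called, but called without postnatal NSC library 1 (edgeR adjusted p = 0.0488) and in the fit of these groups alone (edgeR adjusted p = 0.0384). Slit2 was at 11.1, 5.23, 7.84 and 5.34 CPM in postnatal NSC, 3.66, 2.18, 3.38 and 3.58 in adult NSC, and 8.04, 9.42, 8.93 and 7.97 in OPC. It was lower in adult NSC than in both other groups, with -1.20 ± 0.25 (SE, edgeR adjusted p = 0.00197) against postnatal NSC and 1.43 ± 0.26 (SE, edgeR adjusted p = 0.000613) for OPC against adult, and it gave 0.22 ± 0.24 (SE, edgeR adjusted p = 0.479) in OPC against postnatal NSC. Robo1, a Slit receptor, was at 45.5, 39, 43.6 and 36.1 CPM in postnatal NSC, 31.4, 33.2, 40.1 and 30.9 in adult NSC, and 83.8, 58.4, 63.2 and 62.6 in OPC. OPC was above both neurosphere groups without overlap, by 0.71 ± 0.13 (SE, edgeR adjusted p = 0.00093) and 0.98 ± 0.13 (SE, edgeR adjusted p = 6.83e-05), and adult against postnatal NSC gave -0.28 ± 0.13 (SE, edgeR adjusted p = 0.0907). This last value was called without adult library 3, OPC library 1 or postnatal NSC library 4 (edgeR adjusted p 0.0347 to 0.0452). Robo2 was at 35.1, 39.1, 52.9 and 30.6 CPM in postnatal NSC, 31.4, 31, 26.3 and 31.3 in adult NSC, and 33.8, 13.7, 31.6 and 28.8 in OPC, and none of its comparisons was called, with adjusted p from edgeR's test of 0.0809, 0.184 and 0.618. The first was called without postnatal NSC library 4 (-0.69, edgeR adjusted p = 0.0428) and the second without OPC library 2 (-0.43, edgeR adjusted p = 0.0282). OPC library 2 was its lowest value by far.

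Of 19 semaphorins tested, 4 were higher and 2 lower in OPC than in postnatal NSC (22.4% and 22.7% of all genes). Adult NSC had 5 higher and 10 lower against postnatal NSC (25.2% and 27.9% of all genes). OPC had 9 higher and 5 lower against adult NSC (26.3% and 24.7%). The median log2 fold changes were -0.17, -0.48 and 0.74. Secreted class 3 members Sema3a, Sema3c and Sema3e were highest in adult NSC, whereas Sema3d and the transmembrane Sema5a, Sema6b and Sema4g were lowest there. The split was not by class: the transmembrane Sema4b and Sema6d were also called higher in adult NSC than in both other groups. The secreted Sema3b was called lower in adult than in postnatal NSC. Sema6d and Sema3b were picked after their values were seen and were not followed singly under other settings.

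Sema3a, a secreted repellent of axons and of migrating OPCs, was at 18.9, 14.9, 12.8 and 20.8 CPM in postnatal NSC, 44.9, 48.3, 49.8 and 44.8 in adult NSC, and 17.1, 11, 18.5 and 21 in OPC. All adult values were above all others, and the mean was 2.79 times the postnatal NSC mean and 2.78 times the OPC mean. The log2 fold change was 1.48 ± 0.19 (SE, edgeR adjusted p = 9.47e-05) in adult against postnatal NSC and -1.47 ± 0.19 (SE, edgeR adjusted p = 5.72e-05) in OPC against adult, and between OPC and postnatal NSC it was 0.00 ± 0.19 (SE, edgeR adjusted p = 0.989). Sema3c was at 2.93, 2.6, 2.03 and 6.36 CPM in postnatal NSC, 10.6, 9.15, 7.6 and 9.01 in adult NSC, and 1.98, 0.693, 2.54 and 2.26 in OPC. Adult NSC was again the highest group, with 1.38 ± 0.39 (SE, edgeR adjusted p = 0.00989) against postnatal NSC and -2.29 ± 0.41 (SE, edgeR adjusted p = 0.000611) for OPC against adult. OPC against postnatal NSC gave -0.91 ± 0.40 (SE, edgeR adjusted p = 0.0834), and -1.10 (adjusted p = 0.0382) without postnatal NSC library 3. Sema3e, which lies under the level set for naming and was picked after its values were seen, was at 3.26 ± 0.753 CPM in adult NSC against 0.335 ± 0.145 in postnatal NSC and 0.262 ± 0.0806 in OPC. Its log2 fold changes were 3.24 ± 0.33 (SE, edgeR adjusted p = 2.14e-05) and, for OPC against adult, -3.61 ± 0.36 (SE, edgeR adjusted p = 7.85e-06). It binds the receptor Plxnd1.

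Sema3d was at 2.78, 3.93, 6.44 and 2.73 CPM in postnatal NSC, 0.764, 1.09, 0.732 and 0.864 in adult NSC, and 6.39, 29.7, 10.6 and 7.88 in OPC. The adult values lay under all others. OPC library 2, at 29.7 CPM, exceeded the other OPC libraries by far, and OPC overlapped with postnatal NSC. The log2 fold change was 1.78 ± 0.45 (SE, edgeR adjusted p = 0.0066) in OPC against postnatal NSC, -2.19 ± 0.51 (SE, edgeR adjusted p = 0.00371) in adult against postnatal NSC and 3.98 ± 0.53 (SE, edgeR adjusted p = 6.64e-05) in OPC against adult. Without OPC library 2 the first was 1.03 and the last 3.26. Sema3f, an attractant of OPCs in other work, was at 0.397, 0.632, 1.28 and 0.422 CPM in postnatal NSC, 0.6, 1.2, 0.957 and 0.617 in adult NSC, and 0.629, 0.856, 0.634 and 0.288 in OPC. Its level was near 1 CPM and its groups overlapped throughout, with adjusted p of 0.778, 0.563 and 0.407 from edgeR's test.

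Class 4 semaphorins are transmembrane proteins that bind plexins of the B class and others. Sema4a was at 6.36, 13.2, 25.4 and 3.11 CPM in postnatal NSC, 1.36, 1.3, 0.957 and 2.1 in adult NSC, and 3.87, 3.06, 2.36 and 2.02 in OPC, and its postnatal NSC libraries ranged widely, down to within the range of OPC. The log2 fold change was -3.07 ± 0.56 (SE, edgeR adjusted p = 0.000846) in adult and -2.08 ± 0.53 (SE, edgeR adjusted p = 0.00654) in OPC against postnatal NSC, and 0.99 ± 0.56 (SE, edgeR adjusted p = 0.159) in OPC against adult. Without postnatal NSC library 3, the highest, the first was -2.41 and the second -1.42. With Ddx3y as a covariate the second was no longer called (-1.08, edgeR adjusted p = 0.115), while the third was (1.29, edgeR adjusted p = 0.0368), as it was in the fit of these groups alone. Sema4b was at 50.4, 58.5, 32.7 and 70.9 CPM in postnatal NSC, 89.5, 86.6, 83.5 and 97.6 in adult NSC, and 24.4, 15.7, 30.1 and 25.5 in OPC. Its 3 groups did not overlap, with adult NSC highest and OPC lowest, and it gave -1.15 ± 0.22 (SE, edgeR adjusted p = 0.00133), 0.75 ± 0.22 (SE, edgeR adjusted p = 0.0128) and -1.90 ± 0.23 (SE, edgeR adjusted p = 3.01e-05) for OPC against postnatal NSC, adult against postnatal NSC and OPC against adult. Sema4g was at 34.1, 48, 66.6 and 24.6 CPM in postnatal NSC, 9.22, 11, 10.8 and 10.1 in adult NSC, and 37.8, 52, 24.5 and 28.3 in OPC. It was lower in adult NSC than in both other groups, by -2.08 ± 0.30 (SE, edgeR adjusted p = 0.000195) against postnatal NSC and with 1.80 ± 0.30 (SE, edgeR adjusted p = 0.000365) for OPC against adult, and OPC against postnatal NSC gave -0.28 ± 0.28 (SE, edgeR adjusted p = 0.446). Without postnatal NSC library 3 this last value was 0.002 (edgeR adjusted p = 0.995). Sema4d, known as a ligand of Plxnb1, was at 3.5, 3.97, 6.86 and 3.38 CPM in postnatal NSC, 4.37, 4.21, 4.33 and 5.06 in adult NSC, and 8.47, 4.77, 6.05 and 8.12 in OPC. None of its comparisons was called (adjusted p of 0.058, 0.95 and 0.0639 from edgeR's test). Other settings did call it: for OPC against postnatal NSC these were the fits without postnatal NSC library 3 (0.92, edgeR adjusted p = 0.00336), without OPC library 2, without both and with Ddx3y as a covariate, and DESeq2 (adjusted p = 0.0421). For OPC against adult NSC they were the same 4 fits and that of the compared groups alone, with edgeR adjusted p of 0.00198 to 0.0322, and DESeq2 (adjusted p = 0.0492).

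Sema5a, a transmembrane semaphorin with thrombospondin repeats (chromosome 15, 32244810 to 32696341, plus strand), was at 39.3, 46.8, 61.9 and 24 CPM in postnatal NSC, 15.1, 16.2, 11.3 and 17.5 in adult NSC, and 101, 214, 97.9 and 87.4 in OPC. The 3 groups did not overlap, with OPC highest and adult NSC lowest, and OPC library 2 lay far above the other OPC libraries. The log2 fold changes were 1.54 ± 0.32 (SE, edgeR adjusted p = 0.00189), -1.52 ± 0.32 (SE, edgeR adjusted p = 0.00212) and 3.06 ± 0.34 (SE, edgeR adjusted p = 1.65e-05) in the same order. Its known receptor Plxnb3 is given below. Sema6a, a ligand of class A plexins, was at 123, 107, 123 and 90.5 CPM in postnatal NSC, 99.4, 91.2, 89.4 and 94.6 in adult NSC, and 137, 90.7, 141 and 131 in OPC. Only OPC against adult NSC was called, with 0.41 ± 0.14 (SE, edgeR adjusted p = 0.0226), although these groups overlapped and the call was lost without any 1 of 5 libraries (adult 2 or 3, OPC 1, 3 or 4; edgeR adjusted p 0.0522 to 0.0662). For OPC against postnatal NSC the fit gave 0.17 ± 0.14 (SE, edgeR adjusted p = 0.316), and 0.35 (edgeR adjusted p = 0.00979) without both libraries of low G1/S genes. Adult against postnatal NSC gave -0.24 ± 0.14 (SE, edgeR adjusted p = 0.15). It was called without OPC library 2 (-0.28, edgeR adjusted p = 0.0288) or postnatal NSC library 4 (-0.37, edgeR adjusted p = 0.0346).

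Sema6b was at 10.6, 13.3, 15.3 and 9.87 CPM in postnatal NSC, 4.37, 2.7, 3.1 and 4.07 in adult NSC, and 21.9, 32.6, 13 and 14 in OPC. Adult NSC lay below the other groups, with -1.79 ± 0.30 (SE, edgeR adjusted p = 0.00045) against postnatal NSC and 2.52 ± 0.30 (SE, edgeR adjusted p = 2.98e-05) for OPC against adult. The value for OPC against postnatal NSC was 0.73 ± 0.28 (SE, edgeR adjusted p = 0.0465) with overlapping groups. This call was lost in 14 of 20 other edgeR settings, among them the fits without any 1 of 9 libraries (the adult ones, OPC 1 or 2, postnatal NSC 1, 2 or 4), with adjusted p up to 0.189 and a value of 0.38 without OPC library 2. Sema6c was at 15.6, 23.8, 27.1 and 15.2 CPM in postnatal NSC, 5.95, 6.76, 5.07 and 5.61 in adult NSC, and 15.2, 27.3, 10.5 and 10.8 in OPC. It was lower in adult NSC, with -1.81 ± 0.31 (SE, edgeR adjusted p = 0.000531) and, for OPC against adult, 1.45 ± 0.31 (SE, edgeR adjusted p = 0.00188). Between OPC and postnatal NSC it was -0.36 ± 0.29 (SE, edgeR adjusted p = 0.34), and -0.78 (edgeR adjusted p = 0.0142) without OPC library 2. Sema7a, a semaphorin anchored in the membrane by a lipid (chromosome 9, 57940112 to 57962865), was at 5.04, 5.47, 7.09 and 4.45 CPM in postnatal NSC, 4.2, 4.88, 5.69 and 4.75 in adult NSC, and 15.6, 13.4, 18.6 and 16.4 in OPC. Every OPC library was above every neurosphere library, by 2.9 and 3.28 times on the means, with 1.54 ± 0.17 (SE, edgeR adjusted p = 2.97e-05) against postnatal and 1.71 ± 0.17 (SE, edgeR adjusted p = 8.24e-06) against adult NSC. Between the neurosphere groups its value was -0.18 ± 0.17 (SE, edgeR adjusted p = 0.402).

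**Figure D4:**
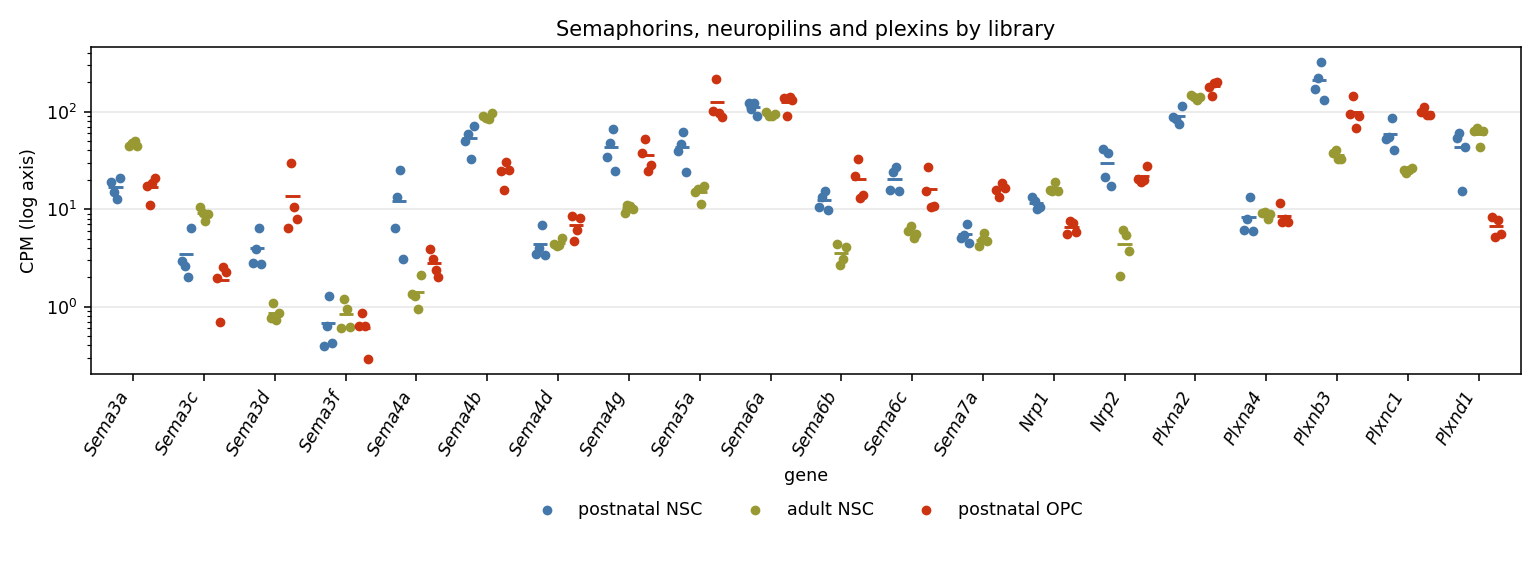
CPM on a log axis of semaphorins, plexins and neuropilins in each library (points), by group, with the mean of 4 as a bar. Sema7a and Plxnc1 are highest in the OPC libraries, Sema3a in the adult NSC libraries, and Nrp2 and Plxnb3 are lowest in adult NSC.

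Among the receptors of semaphorins, 2 of 11 plexins and neuropilins were higher and 5 lower in OPC than in postnatal NSC. The shares of all genes were 22.4% and 22.7%. Adult NSC had 3 higher and 5 lower against postnatal NSC (25.2% and 27.9% of all genes). OPC had 5 higher and 4 lower against adult NSC (26.3% and 24.7%). The neuropilins, which bind class 3 semaphorins, went in opposite directions in the comparisons with adult NSC. Nrp1, the coreceptor of Sema3a, was at 13.5, 12, 10.1 and 10.5 CPM in postnatal NSC, 15.6, 15.2, 19.2 and 15.4 in adult NSC, and 5.52, 7.54, 7.2 and 5.86 in OPC. The groups did not overlap, with adult NSC highest and OPC lowest, and the log2 fold changes were -0.82 ± 0.15 (SE, edgeR adjusted p = 0.000822), 0.51 ± 0.14 (SE, edgeR adjusted p = 0.0109) and -1.32 ± 0.15 (SE, edgeR adjusted p = 1.88e-05). Nrp2, the coreceptor of Sema3f (chromosome 1, 62703285 to 62818695, plus strand), was at 41.7, 21.3, 38.1 and 17.3 CPM in postnatal NSC, 2.07, 6.18, 5.46 and 3.76 in adult NSC, and 20.4, 19.1, 19.7 and 27.6 in OPC. All adult values lay below all others, by 6.78 times against the postnatal NSC mean, with -2.76 ± 0.35 (SE, edgeR adjusted p = 8.95e-05), and 2.31 ± 0.35 (SE, edgeR adjusted p = 0.000177) for OPC against adult. OPC against postnatal NSC gave -0.45 ± 0.32 (SE, edgeR adjusted p = 0.272). Per kb, Nrp1 made up 82.3% ± 6.29 (SD, n = 4) of both neuropilins in adult NSC, 33.8% ± 8.93 (SD, n = 4) in postnatal NSC and 27% ± 5.5 (SD, n = 4) in OPC, so that Nrp2 was the larger in the postnatal cultures and Nrp1 in the adult ones.

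Class A plexins transmit signals of class 3 and class 6 semaphorins. Plxna2 was at 88.5, 83.9, 74.6 and 114 CPM in postnatal NSC, 147, 142, 130.4 and 143 in adult NSC, and 179.9, 145, 197 and 203 in OPC. Postnatal NSC was the lowest group, with 1.01 ± 0.13 (SE, edgeR adjusted p = 9.74e-05) for OPC and 0.64 ± 0.13 (SE, edgeR adjusted p = 0.00171) for adult NSC. OPC against adult gave 0.37 ± 0.13 (SE, edgeR adjusted p = 0.0334) with overlapping groups, and this call was lost without any 1 of 7 libraries (the adult ones, and OPC 1, 3 or 4; edgeR adjusted p up to 0.0926). Plxna4 was at 6.08, 7.84, 13.2 and 6.01 CPM in postnatal NSC, 9.11, 9.25, 7.94 and 9.01 in adult NSC, and 11.5, 7.42, 7.95 and 7.4 in OPC, and its adjusted p was 0.887, 0.768 and 0.903 (edgeR). Its levels overlapped in all 3 comparisons.

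Class B plexins bind class 4 and class 5 semaphorins. Plxnb2 and Plxnb1, added here for their level after the values were seen, had the highest CPM per kb of all guidance genes in each postnatal group: 58.3 and 46.8 in postnatal NSC, and 36.8 and 38.8 in OPC. In adult NSC Plxnb2 was again the highest, at 62.4, while Plxnb1, at 19.5, came after Ntn1, Sema6d and Plxna1, at 35.1, 25.8 and 24.6. Plxnb1 was lower in adult than in postnatal NSC, with -1.26 ± 0.19 (SE, edgeR adjusted p = 0.000264), and Plxnb2 was lower in OPC than in postnatal NSC, with -0.66 ± 0.10 (SE, edgeR adjusted p = 0.000297). Plxnb3, the Sema5a receptor (chromosome X, 73757090 to 73772514, plus strand), was at 171, 220.1, 322 and 132 CPM in postnatal NSC, 37.3, 40.5, 32.9 and 32.6 in adult NSC, and 93.6, 145, 67.6 and 90.7 in OPC. Adult NSC lay far under both other groups, which overlapped. The log2 fold changes were -1.09 ± 0.26 (SE, edgeR adjusted p = 0.00532), -2.56 ± 0.28 (SE, edgeR adjusted p = 3.19e-05) and 1.47 ± 0.27 (SE, edgeR adjusted p = 0.000716), the first of which was not called with Ddx3y as a covariate (-0.76, edgeR adjusted p = 0.0518). It made up 17.1% of all plexins per kb in postnatal NSC, 3.97% in adult NSC and 10.9% in OPC. Mature oligodendrocyte markers (8 genes) summed to 420, 598, 909 and 330 CPM in the postnatal NSC libraries. Their sums were 148 to 188 in adult NSC and 262 to 534 in OPC. Astrocyte markers (6 genes) summed to 1387 to 2316, 1589 to 1686 and 934 to 1605 CPM. Plxnb3 and Sema4a share the order of the postnatal NSC libraries with the mature oligodendrocyte sums. So do Sema4g, Sema6c, Sema5a, Plxnc1 and Unc5c, among others, and the astrocyte and neuroblast sums. Several marker lists thus share this order. Over the groups, the mature oligodendrocyte and neuroblast sums were lowest in adult NSC, while the astrocyte sums of adult NSC and OPC overlapped. The part of these markers in the levels of Plxnb3, Sema4a, Sema4g and Sema6c was not tested.

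Plxnc1, the receptor of Sema7a, was at 52.2, 55.4, 87.1 and 40.2 CPM in postnatal NSC, 25.2, 23.5, 25.4 and 26.5 in adult NSC, and 98.3, 112, 91.8 and 93.4 in OPC. The groups did not overlap, and OPC was highest, with 0.75 ± 0.18 (SE, edgeR adjusted p = 0.0053), -1.22 ± 0.19 (SE, edgeR adjusted p = 0.000269) and 1.98 ± 0.19 (SE, edgeR adjusted p = 5.53e-06). Ligand and receptor of this pair thus both had their highest values in OPC. Plxnd1, the receptor of Sema3e that is known from blood vessels (chromosome 6, 115954811 to 115995005, minus strand), was at 54.2, 60.7, 15.3 and 43.3 CPM in postnatal NSC, 63.6, 68.1, 43.5 and 63 in adult NSC, and 8.23, 5.14, 7.78 and 5.62 in OPC. OPC values lay below all neurosphere values, and postnatal NSC library 3 was the lowest of the neurospheres. The log2 fold changes were -2.70 ± 0.36 (SE, edgeR adjusted p = 0.000104) and -3.16 ± 0.36 (SE, edgeR adjusted p = 2.26e-05) for OPC against postnatal and adult NSC, and 0.46 ± 0.33 (SE, edgeR adjusted p = 0.255) between the neurosphere groups.

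Efna1, Efna4 and Efnb2 were lower in OPC than in postnatal NSC, and Efnb3 was higher. Of 8 ephrins tested, 1 was higher and 6 lower in that comparison, where 22.4% and 22.7% of all genes were called. In adult against postnatal NSC 2 were higher and 3 lower (25.2% and 27.9% of all genes), and in OPC against adult NSC 2 were higher and 4 lower (26.3% and 24.7%). The median log2 fold changes were -0.94, -0.44 and -0.87. Efna4, an ephrin tethered by a lipid anchor, was at 7.45, 10.6, 12.1 and 9.74 CPM in postnatal NSC, 9.44, 8.78, 9.12 and 9.31 in adult NSC, and 3.49, 2.77, 3.8 and 2.02 in OPC. OPC lay below the neurospheres without overlap, with -1.73 ± 0.20 (SE, edgeR adjusted p = 4.75e-05) and -1.60 ± 0.21 (SE, edgeR adjusted p = 5.19e-05), and adult against postnatal NSC gave -0.12 ± 0.19 (SE, edgeR adjusted p = 0.604). For 10.5% of its exon length it overlaps a gene on the opposite strand, and whether the counting used strand is not given in the sources used here. Efna1, picked after its values were seen, was at 2.63 ± 1.02, 0.837 ± 0.166 and 0.528 ± 0.25 CPM in postnatal NSC, adult NSC and OPC, with -2.33 ± 0.37 (SE, edgeR adjusted p = 0.000373) for OPC and -1.65 ± 0.36 (SE, edgeR adjusted p = 0.00238) for adult NSC against postnatal NSC.

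Efnb2, a transmembrane ephrin and the ligand of Ephb4, was at 39.1, 27.7, 26 and 22.2 CPM in postnatal NSC, 57.6, 53.4, 43.7 and 51.8 in adult NSC, and 21.1, 16.2, 19.5 and 21.4 in OPC. Its 3 groups did not overlap, with adult NSC highest and OPC lowest, and the log2 fold changes were -0.56 ± 0.16 (SE, edgeR adjusted p = 0.015), 0.84 ± 0.16 (SE, edgeR adjusted p = 0.00117) and -1.40 ± 0.17 (SE, edgeR adjusted p = 2.83e-05). Efnb3 was at 4.45, 6.39, 8.29 and 4.2 CPM in postnatal NSC, 2.35, 2.96, 2.48 and 3.08 in adult NSC, and 10.1, 8.56, 8.93 and 7.97 in OPC. It had the reverse order, with -1.10 ± 0.22 (SE, edgeR adjusted p = 0.00156) in adult against postnatal NSC and 1.71 ± 0.23 (SE, edgeR adjusted p = 6.39e-05) in OPC against adult. OPC against postnatal NSC gave 0.61 ± 0.21 (SE, edgeR adjusted p = 0.0347) with overlapping groups, a call lost without any 1 of 6 libraries (OPC 1, 2 or 3, postnatal NSC 1, 2 or 4; edgeR adjusted p 0.0535 to 0.106).

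Eph receptors are tyrosine kinases that bind ephrins on adjoining cells. Of 11 tested, 3 were higher and 5 lower in OPC than in postnatal NSC (22.4% and 22.7% of all genes). Adult NSC had 3 higher and 6 lower against postnatal NSC (25.2% and 27.9% of all genes). OPC had 6 higher and 3 lower against adult NSC (26.3% and 24.7%). Epha2, a receptor of A-type ephrins (chromosome 4, 141301240 to 141329384, plus strand), was at 12.6, 4.6, 8.66 and 8.4 CPM in postnatal NSC, 24.4, 25.8, 21.5 and 31.7 in adult NSC, and 0.968, 0.285, 0.749 and 0.336 in OPC. The 3 groups did not overlap, and the OPC values were all under 1 CPM. Its mean was 14.6 times lower in OPC than in postnatal NSC and 44.2 times lower than in adult NSC, the widest gaps among the named guidance genes. The log2 fold changes were -3.89 ± 0.39 (SE, edgeR adjusted p = 1.57e-05), 1.60 ± 0.31 (SE, edgeR adjusted p = 0.00118) and -5.49 ± 0.40 (SE, edgeR adjusted p = 6.94e-07).

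Epha4, which binds ephrins of both types, was at 24.2, 26.2, 39.7 and 16.7 CPM in postnatal NSC, 9.55, 11.3, 8.89 and 9.99 in adult NSC, and 15.8, 15.9, 17 and 15.8 in OPC. Adult NSC was lowest, with -1.43 ± 0.21 (SE, edgeR adjusted p = 0.000204) against postnatal NSC and 0.70 ± 0.21 (SE, edgeR adjusted p = 0.0141) for OPC against adult, and OPC against postnatal NSC gave -0.73 ± 0.20 (SE, edgeR adjusted p = 0.0114) with overlapping groups, and -0.50 (edgeR adjusted p = 0.0985) with Ddx3y as a covariate. Epha5 was at 36.1, 47.5, 70.9 and 43.9 CPM in postnatal NSC, 41.2, 39.9, 39.9 and 35.6 in adult NSC, and 104, 63.2, 89.2 and 97 in OPC. OPC was above adult NSC, with 1.18 ± 0.20 (SE, edgeR adjusted p = 0.000371), and above postnatal NSC, with 0.83 ± 0.19 (SE, edgeR adjusted p = 0.0041), where 1 postnatal NSC library (library 3) exceeded the lowest OPC library. Adult against postnatal NSC gave -0.34 ± 0.19 (SE, edgeR adjusted p = 0.155), and -0.50 (edgeR adjusted p = 0.0433) without postnatal NSC library 1.

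Ephb1, a receptor of B-type ephrins, was at 28.7, 28.6, 28.4 and 24.9 CPM in postnatal NSC, 12.6, 14.3, 13.6 and 12.3 in adult NSC, and 14.7, 15.1, 11.3 and 15.3 in OPC. Postnatal NSC lay above both other groups, with -0.97 ± 0.11 (SE, edgeR adjusted p = 4.54e-05) and -1.07 ± 0.12 (SE, edgeR adjusted p = 2.84e-05), and OPC against adult gave 0.10 ± 0.12 (SE, edgeR adjusted p = 0.504). Ephb2 was at 31.7, 47.7, 47.1 and 31.6 CPM in postnatal NSC, 97.2, 106, 74.2 and 108 in adult NSC, and 73.1, 75.3, 71.4 and 54.5 in OPC. It went the other way, with 0.79 ± 0.17 (SE, edgeR adjusted p = 0.00269) in OPC and 1.29 ± 0.17 (SE, edgeR adjusted p = 0.000127) in adult NSC against postnatal NSC. OPC against adult gave -0.49 ± 0.17 (SE, edgeR adjusted p = 0.0296) with overlapping groups, a call lost without adult library 1, 2 or 4 or OPC library 4 (edgeR adjusted p 0.0565 to 0.0805). Ephb4, the receptor of Efnb2 that is known from veins, was at 15.8, 25.3, 23 and 24.8 CPM in postnatal NSC, 30.8, 29.3, 33.3 and 33.1 in adult NSC, and 8.13, 5.42, 5.82 and 6 in OPC. Its groups did not overlap, with OPC lowest, and it gave -1.81 ± 0.17 (SE, edgeR adjusted p = 9.55e-06), 0.51 ± 0.16 (SE, edgeR adjusted p = 0.0176) and -2.32 ± 0.17 (SE, edgeR adjusted p = 7.05e-07). Per kb, Ephb3 was the largest EphB receptor in OPC, at 43.9% of the summed level of 5 receptors, while Ephb2 and Ephb4 supplied 33.9% and 30.4% in adult NSC. Ephb3, picked after its values were seen, gave -1.09 ± 0.12 (SE, edgeR adjusted p = 4.14e-05) in adult against postnatal NSC and 1.59 ± 0.12 (SE, edgeR adjusted p = 1.1e-06) in OPC against adult.

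**Figure D5:**
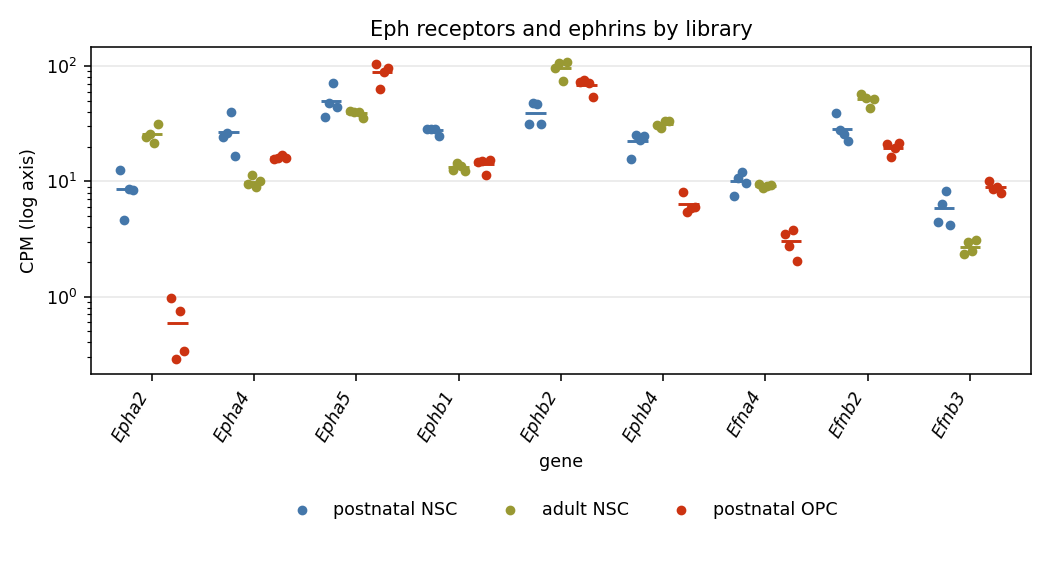
CPM on a log axis of Eph receptors and ephrins in each library (points), by group, with the mean of 4 as a bar. Epha2, Ephb4 and Efna4 are lowest in the OPC libraries, and Efnb2 and Ephb2 are highest in the adult NSC libraries on average.

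The 8 members that were not tested (Epha1, Epha6, Epha8, Ntn5, Robo3, Robo4, Sema3g and Slit3) reached at most 0.581 CPM in any library. Epha8 and Ntn5 had no count in the 4 OPC libraries, which hold 82426475 counts in all, so that 3 counts, or 0.0364 CPM, is the upper limit that this depth allows (counting error only). The other 21 tested members that are not described above by library were between 0.262 and 482 CPM on group means.

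A list of 46 companions and effectors of these receptors was followed too, of which 45 were tested. In OPC against postnatal NSC 14 were higher and 10 lower, where 22.4% and 22.7% of all genes were called. In adult against postnatal NSC 9 were higher and 19 lower (25.2% and 27.9% of all genes), and in OPC against adult NSC 21 were higher and 10 lower (26.3% and 24.7%). Chl1, an adhesion molecule that acts with neuropilins, was at 21.1 ± 11.8 CPM in postnatal NSC, 6.89 ± 1.44 in adult NSC and 171 ± 36.8 in OPC. It was highest in OPC, with 3.02 ± 0.40 (SE, edgeR adjusted p = 0.000109), -1.61 ± 0.40 (SE, edgeR adjusted p = 0.00556) and 4.62 ± 0.44 (SE, edgeR adjusted p = 5.31e-06). Adult and postnatal NSC overlapped for Chl1, with postnatal NSC library 3 at 5.91 CPM and adult NSC at 5.35 to 8.42. Dscam, a netrin coreceptor, was at 88.6 ± 10.2 CPM in postnatal NSC, 29.9 ± 2.86 in adult NSC and 225 ± 35.3 in OPC, with 2.91 ± 0.13 (SE, edgeR adjusted p = 1.42e-08) in OPC against adult NSC. Draxin, a secreted netrin antagonist, was at 142 ± 84.8 CPM in postnatal NSC, 5.62 ± 0.728 in adult NSC and 50.2 ± 31.4 in OPC, with -4.65 ± 0.51 (SE, edgeR adjusted p = 3.19e-05) in adult against postnatal NSC and 3.16 ± 0.48 (SE, edgeR adjusted p = 0.000188) in OPC against adult. Its value for OPC against postnatal NSC, -1.50 ± 0.43 (SE, edgeR adjusted p = 0.0137), rests on overlapping groups and on postnatal libraries that vary widely. Postnatal NSC library 3 (250 CPM) and OPC library 2 (97.1 CPM), those of low G1/S genes, were the highest of their groups. Rgma, a ligand of the Dcc relative neogenin, was lower in both OPC and adult NSC than in postnatal NSC, with -1.27 ± 0.29 (SE, edgeR adjusted p = 0.00329) and -2.09 ± 0.29 (SE, edgeR adjusted p = 0.000164).

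Flrt3, Slitrk1 and Slitrk2, surface proteins with leucine-rich repeats, were higher in OPC than in postnatal NSC, with 1.67, 1.64 and 1.56 on the log2 scale, and also higher than in adult NSC, with 0.98, 2.69 and 2.13. Vav3, an exchange factor that acts below Eph receptors, was at 358 ± 30.1 CPM in adult NSC and 32.6 ± 10.7 in OPC, and was highest in adult NSC, with 1.84 ± 0.38 (SE, edgeR adjusted p = 0.00182), and -3.46 ± 0.41 (SE, edgeR adjusted p = 2.78e-05) for OPC against adult. Mical2, a redox enzyme of the family that acts on actin below plexins, was lower in OPC, with -2.14 ± 0.24 (SE, edgeR adjusted p = 3.01e-05) against postnatal and -2.59 ± 0.24 (SE, edgeR adjusted p = 4.07e-06) against adult NSC. Rasa1, Chn1 and Nck1, signal adaptors and GTPase regulators, were higher in adult than in postnatal NSC by 1.06, 1.01 and 0.74, and Dpysl4, of the collapsin response mediator family, was lower by -1.67. Chn1 and Arhgef12 were lower in OPC than in adult NSC, at -0.86 and -0.60.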

How the data were processed

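The table deposited by the authors holds raw read counts per gene for the 12 libraries. The tools named are FastQC, STAR and featureCounts 1.22.2, with GRCm38 as the build, per the submitters' processing notes. The strand setting, the treatment of multi-mapping reads and the annotation release are not given in the sources used here. Symbols and coordinates come from GENCODE M21 (GRCm38), which held 55141 of 55401 identifiers. Of the guidance genes, 18 share exon sequence with another gene on either strand, and reads there cannot be assigned with certainty. Ephb1, Ephb4, Nrp1, Plxna4, Plxnb1, Plxnc1, Sema4a, Unc5a and Unc5c do so over at most 2.68% of their exon length. Efna4 and Plxna1 overlap a gene on the opposite strand over 10.5% and 10.7% of theirs.

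Counts were analysed with R 4.3.3 and edgeR 4.0.16. Genes were kept by filterByExpr (minimum count 10, minimum total 15), scaled by TMM and fitted by edgeR's quasi-likelihood method with 1 term per group over all 12 libraries (common dispersion 0.0513). Tests were two-sided, adjusted by Benjamini-Hochberg over the 16135 genes of a comparison, and 0.05 was the threshold for a call. CPM used the TMM-normalised library size, and values per kb the union exon length. DESeq2 1.42.0 and other settings served as alternatives. No pair of libraries in a group differed by as little as sampling noise.

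The genes and lists were chosen with earlier results of these data known. Values per library are given for up to 10 rises and 10 falls per comparison, by size, for calls whose higher group averaged 5 CPM or more, and for 20 genes fixed whatever their result. Of the companion list, up to 4 called genes per direction and comparison are named by the same minimum. The values of Flrt3 and Slitrk2 for OPC against adult NSC were added after they were seen.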

Additional observations from a re-analysis of the deposited data

Results flagged for a closer look

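In 13 of 120 groups of 4 libraries, 1 per named gene and group, a single library lay far from the other 3: its gap to the nearest as a share of the whole range was above Dixon's 95% critical value, which chance gives in about 1 in 20 groups. OPC library 2 was the high one for 3 genes, with Dcc at 150.6 CPM against 80.9 to 89.6 in the others, Sema5a at 213.9 against 87.4 to 101, and Unc5c at 77.8 against 48.5 to 53.1. That library also had the lowest summed G1/S genes of the OPC group (601 CPM against 2196 to 2569), and the highest summed markers of neuroblasts and neurons (257 against 99.2 to 149), mature oligodendrocytes (534 against 262 to 326) and OPC (15659 against 10742 to 10943). The part of these in its values was not tested. Epha4 was high in OPC library 3 (17 against 15.8 to 15.9), Nrp2 in OPC library 4 (27.6 against 19.1 to 20.4) and Plxna4 in OPC library 1 (11.5 against 7.40 to 7.95). Ephb1 was low in OPC library 3 (11.3 against 14.7 to 15.3) and in postnatal NSC library 4 (24.9 against 28.4 to 28.7). Nrp1 was high in adult library 3 (19.2 against 15.2 to 15.6), Unc5a in adult library 1 (12.4 against 11 to 11.3), and Robo2 was low in adult library 3 (26.3 against 31.0 to 31.4). Sema4d was high in postnatal NSC library 3 (6.86 against 3.38 to 3.97) and Unc5d in postnatal NSC library 1 (5.36 against 2.61 to 2.98).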

How the results depend on the processing

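The counts of guidance genes called kept within 1.5 times under all 21 alternatives: size factors of DESeq2, DESeq2's own test, 2 other filters, fits of 2 groups, a replicate block, thinning to equal depth, the Y-linked gene Ddx3y as a covariate, the fit without both libraries of low G1/S genes, and each library left out. OPC against postnatal NSC had 13 to 17 higher and 16 to 26 lower, adult against postnatal NSC 15 to 17 and 28 to 34, and OPC against adult NSC 25 to 30 and 19 to 21. Calls over all genes moved as well, with 14700 to 30841 genes tested. In the same order they were 2843 to 4265 higher and 2856 to 4526 lower, 3167 to 4494 and 3888 to 5221, and 3681 to 4611 and 3507 to 4448. Of 128 called values of named genes, 115 kept their call in every setting that gave a value, and none reversed. With Ddx3y as a covariate, OPC against postnatal NSC was no longer called by edgeR for Sema4a (-1.08, adjusted p = 0.115), Epha4 (-0.50, adjusted p = 0.0985), Plxnb3 (-0.76, adjusted p = 0.0518) and Draxin (-0.83, adjusted p = 0.194). Fitting the replicate number as a block gave 14 higher and 19 lower in OPC against postnatal NSC, 16 and 30 in adult against postnatal NSC, and 27 and 20 in OPC against adult NSC. Of all 16135 genes, that fit called 3423 and 3388, 3896 and 4147, and 3959 and 3859 in the same order. Same-numbered libraries deviated together in 3 of 12 pairs (r over 0.1, range -0.363 to 0.325), and in 8 of 24 combinations of a library with another group its own number correlated best, so the numbers were not taken as pairs. Under the block the calls of Ntn1 (-0.46, adjusted p = 0.0503) and Sema6b (0.68, adjusted p = 0.0875) in OPC against postnatal NSC were lost, and Sema3a there was -0.005.

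Values near 0 that were not called changed sign. Sema3a in OPC against postnatal NSC was -0.032 with no filter, -0.003 with the filter of 1 CPM, -0.022 after thinning, -0.149 with Ddx3y and -0.116 to 0.137 leaving out 1 library. Sema4d in adult against postnatal NSC was -0.006, -0.007 and -0.080 in the first 3 of these settings and -0.130 to 0.308 leaving out 1 library. In OPC against postnatal NSC, Sema3f was 0.188 with Ddx3y, 0.065 without both low G1/S libraries and -0.431 to 0.304 leaving out 1, Sema4g was 0.050 with Ddx3y and -0.548 to 0.002, Plxna4 was -0.155 to 0.361, and Sema3e was 0.009 after thinning. Plxna4 in adult against postnatal NSC was -0.075 to 0.405. In OPC against adult NSC, Plxna4 was 0.086 with Ddx3y, 0.028 without both libraries and -0.211 to 0.030, and Robo2 was 0.070 without both and -0.277 to 0.072. The cause was not tested. Sema3f gave no value under the 1 CPM filter, and Sema3e gave none for OPC against postnatal NSC in the fit of these groups alone. Genes under 1 CPM rest on few reads in the adult and OPC libraries.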

Other observations

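Over all 69 guidance genes, the summed level was 3119 ± 289 CPM in postnatal NSC, 2815 ± 110 in adult NSC and 2887 ± 214 in OPC (SD, n = 4). That total was not divided by exon length. Sums of classes are given per kb of exon, a different measure, so they are not parts of that total. Class B plexins, the largest class per kb, were at 137.6 CPM per kb in postnatal NSC, 87.5 in adult NSC and 90.9 in OPC. Netrins were at 39.5, 55.1 and 30.3 in the same order, and Dcc with the Unc5 receptors at 8.32, 16.9 and 14.6. Class 3 semaphorins were at 2.55, 5.35 and 3.34, and the neuropilins that bind them at 3.68, 2.04 and 2.50. B-type ephrins were at 17.9, 25.0 and 13.6, while their EphB receptors were at 24.1, 22.5 and 24.2. A-type ephrins were at 16.6, 10.9 and 10.5. These sums are descriptions without a test.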
